A study of Mus musculus with 6 samples.

Results

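Gas5 is a gene for a spliced long non-coding RNA whose exons code for no protein and whose introns carry small nucleolar RNAs (snoRNAs). The snoRNAs examined here are all features in a window of chromosome 1 around Gas5 (GRCm38) that match a GENCODE M21 gene of type snoRNA at the same start and end. There were 10 such features among 443 snoRNA features and 1823 features of any kind listed in at least 1 library. All 10 lie on the plus strand inside Gas5 (161034422 to 161038539), and the choice used no measured value. The long Gas5 transcript itself was not analysed here.

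The libraries are small RNA libraries of mouse bone marrow cells, which the series' design text describes as lineage-negative, meaning depleted of mature blood cells. The groups are 3 libraries labelled Mat KO (called KO here; the series' title names the imprinted Dlk1-Gtl2 locus, which is on chromosome 12) and 3 labelled wildtype (WT). The labels name no allele, removed segment, strain, age or treatment. They also leave unsaid whether each library stands for another animal, and a p-value here may therefore reflect technical spread only. Gas5 is on another chromosome than that locus. Amplified products of 170 to 370 bp, which is insert plus adapters, were cut from a gel, so the snoRNAs described here fall in the selected size class.

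C/D box snoRNAs are short guide RNAs that, with the proteins fibrillarin, Nop56, Nop58 and Snu13, direct 2′-O-methylation of ribosomal and other RNAs. Most are cut out of the introns of a host transcript after splicing, and a stretch next to the D box pairs with the target. In Gas5 the spliced product is quickly lost when translation is active, while the snoRNAs from its introns accumulate as stable particles. The snoRNAs of the gene therefore begin as parts of the same precursor.

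The sequences that set the abundant and the rare snoRNAs side by side are given first, 5′ to 3′ as DNA letters, from the GENCODE M21 transcripts on GRCm38. Capitals mark every TGATGA, the letters of a C box, and every CTGA, the letters of a D box, on the strand of the RNA. A CTGA that runs into a TGATGA appears as 1 run of capitals. The first 3 are Gm26224 (chr1:161035394-161035473, 80 nt), Gm25789 (chr1:161038308-161038383, 76 nt) and the longer of a pair of Snord80 features (chr1:161037601-161037681, 81 nt).
Gm26224: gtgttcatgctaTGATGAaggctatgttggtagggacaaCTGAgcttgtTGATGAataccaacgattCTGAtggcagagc
Gm25789: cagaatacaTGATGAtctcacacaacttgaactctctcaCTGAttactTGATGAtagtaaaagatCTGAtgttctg
Snord80: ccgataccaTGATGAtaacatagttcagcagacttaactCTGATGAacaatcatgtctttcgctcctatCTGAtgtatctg

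The next 3 had the lowest mean levels per length of the 10. They are Gm22489 (chr1:161035850-161035911, 62 nt), Gm22357 (chr1:161036057-161036139, 83 nt) and Snord78 (chr1:161036984-161037049, 66 nt).
Gm22489: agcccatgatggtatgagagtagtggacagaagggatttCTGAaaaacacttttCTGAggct
Gm22357: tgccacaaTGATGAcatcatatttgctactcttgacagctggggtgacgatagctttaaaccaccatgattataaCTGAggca
Snord78: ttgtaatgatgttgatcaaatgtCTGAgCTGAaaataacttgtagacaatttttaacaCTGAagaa

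The last is Gm23212 (chr1:161036682-161036741, 60 nt), the shortest, shown for its match to a ribosomal RNA.
Gm23212: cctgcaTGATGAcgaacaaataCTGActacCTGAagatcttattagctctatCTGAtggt

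The other snoRNAs are the feature with the symbol Mir5117 (chr1:161037356-161037439, 84 nt), the shorter Snord80 feature (chr1:161037604-161037680, 77 nt) and Snord47 (chr1:161038082-161038158, 77 nt). GENCODE gives the Mir5117 feature the type snoRNA, so its counts are read as those of a snoRNA and not of a microRNA. The shorter Snord80 feature lies wholly inside the longer, and both are the same stretch of RNA with different ends. Their separate counts are uncertain, because nothing says how a read inside both was assigned. Outside this pair, no other GENCODE gene than Gas5 holds the whole sequence of any of the 10.

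The 10 share the letters of C/D box snoRNAs. A CTGA ended within the last 12 nt of all 10, against 80.8% of the 458 GENCODE snoRNAs of 50 to 100 nt. A TGATGA began within the first 15 nt of all except Gm22489 and Snord78, against 67.0% of the 458. A second, inner TGATGA was found in Gm26224, Gm25789 and both Snord80 features, and 29.5% of the 458 hold both. The 458 include snoRNAs not measured here, and of the 133 other tested snoRNAs of at most 100 nt only 6 hold both. These matches describe letters only, and a missing TGATGA says only that those letters are not in that window. In Gm23212 the 11 bases TATTAGCTCTA, ending 1 base before the last CTGA, are complementary to mouse 18S ribosomal RNA (taken as the reverse complement of the GENCODE rRNA transcript of CT010467.1). A complementary run of at least 11 bases next to a CTGA was searched against 18S and 5.8S rRNA, and 7.64% of the 458 had one, while none of the other snoRNAs of Gas5 did. The 28S rRNA was not searched here.

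Each Gas5 snoRNA sits in an intron. In the Gas5 transcript model with 12 exons, 9 of the 11 introns hold a listed snoRNA, 1 in each apart from the nested Snord80 pair, and introns 4 and 7 hold none. The distance from the snoRNA's last base to the end of its intron was 65 to 78 nt for 7 of the 9 introns, those of Gm22489, Gm22357, Gm23212, Snord78, Mir5117, Snord47 and Gm25789. The exceptions were Gm26224 in intron 1, with 278 nt, and Snord80 in intron 9, with 313 nt for the longer feature. A short and rather constant distance to the downstream splice site is known for many intronic C/D box snoRNAs of mammals.

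**Figure D1:**
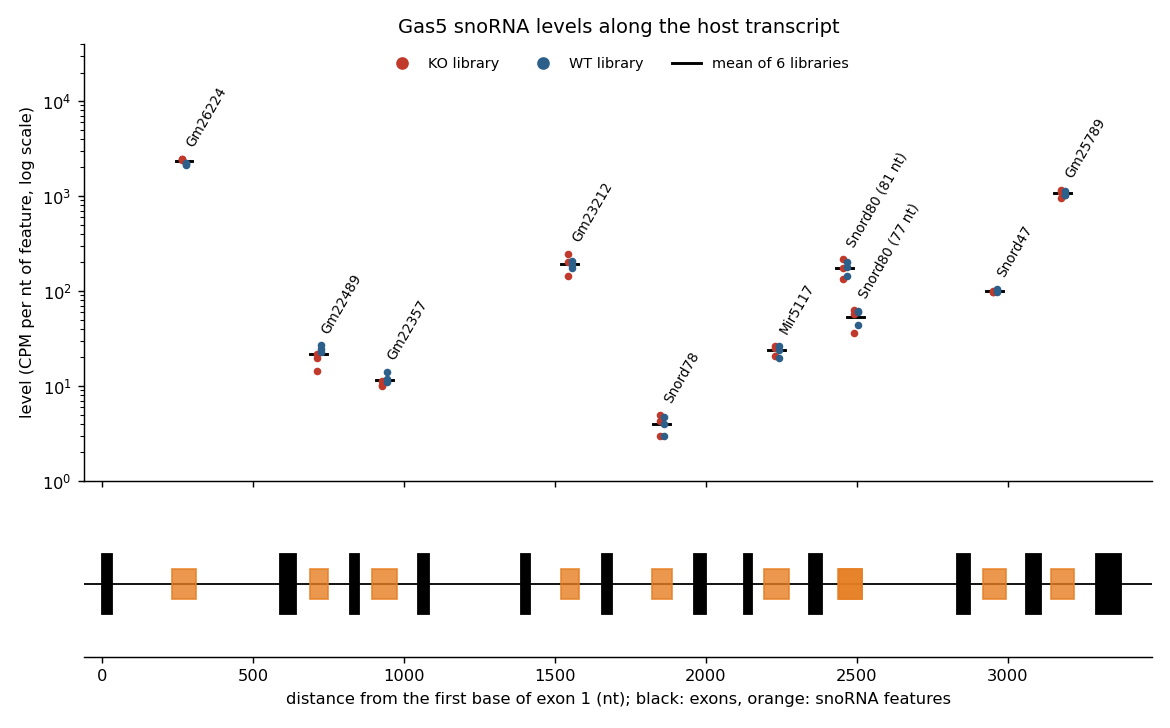
Level of each Gas5 snoRNA by library (points, CPM per nt of feature, log scale; horizontal lines are means of the 6 libraries) above a map of the exons and snoRNA features, by distance in nt from the first base of exon 1. The points of the nested Snord80 features are drawn slightly apart, and levels run from 3.97 CPM per nt for Snord78 to 2313 for Gm26224 without following position along the transcript.

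The depth behind these values was high. Libraries held 45398303 to 53299322 counts, and all 10 snoRNAs were listed in every library, with 8957 counts for the lowest value (Snord78 in WT replicate 2) and 10184749 for the highest (Gm26224 in KO replicate 2). The 10 together made up 30.0%, 33.4% and 32.5% of the counts in KO replicates 1, 2 and 3 and 30.4%, 29.7% and 29.1% in WT replicates 1, 2 and 3. Counting error is small beside this: the exact 95% binomial interval for KO replicate 1 ran from 29.95% to 29.98%, and for Snord78 in the same library from 192 to 199 CPM (library counts scaled to 1000000). Such intervals cover counting error only, since PCR reads are not independent molecules. As a check of the labels, the 10 snoRNAs listed between Dlk1 and Dio3 on chromosome 12 had together 2 to 3 counts in KO and 87 to 106 in WT libraries. Of the microRNA features chosen as cell type markers, 9 of 9 primitive haematopoietic ones were listed. Those 9 had together 61.7 to 86.4 CPM in KO and 50.04 to 100.1 in WT libraries. The pan-haematopoietic Mir142 had 1.96 to 2.33 CPM in KO and 1.07 to 2.00 in WT libraries. The myeloid Mir223 had 13.5 to 21.1 and 8.61 to 19.1 CPM, and the B lymphoid Mir150 4.002 to 6.09 and 0.694 to 3.19 CPM. The liver marker Mir122 had at most 0.0193 and 0.507 CPM. The 2 listed members of the 3 erythroid ones had together 0.846 to 1.68 and 0.657 to 1.18 CPM, with Mir451a at 0 throughout. The endothelial or stromal list had 1.57 to 4.398 CPM in KO and 0.769 to 2.58 in WT libraries, and the muscle list 0.0413 to 7.25 and 0.0563 to 0.197. The part of these differences between libraries in the values below was not tested.

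Levels of the snoRNAs of this host differed widely. Levels here and below are read counts, and how evenly the libraries recovered different RNAs was not tested. Differences between RNAs are therefore not numbers of molecules. Per length, as CPM divided by the feature's length, Gm26224 was the highest and Snord78 the lowest in all 6 libraries, and the ratio between them had a median of 554 over the libraries (477 to 815). Among all 443 listed snoRNA features Gm26224 ranked 1 and Gm25789 ranked 3 by this measure, while Snord78 ranked 87. The median over the 10 was 76.8 CPM per nt, against 5.48 over the 133 other tested snoRNAs of at most 100 nt. Only Snord78 of the 10 was below that median.

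Gm26224 had 2313 ± 159 CPM per nt (SD over the 6 libraries) and Gm25789 had 1067 ± 74. The ratio of Gm26224 to Gm25789 per length was 1.92 to 2.52. The snoRNAs from the first and the last intron were therefore the most abundant in each library. Gm23212 followed with 195 ± 35 CPM per nt and the longer Snord80 feature with 175 ± 32. These neighbours did not differ beyond their spread, although Gm23212 was the higher per length in 6 of 6 libraries, by 1.04 to 1.21 times, and the order turned when counts were not divided by length. Snord47 had 100.1 ± 3.2 and the shorter Snord80 feature 53.6 ± 10.9 CPM per nt. Summed and divided by the longer length, the Snord80 pair had 226 CPM per nt, above Gm23212, so the order of those RNAs depends on how the pair is counted.

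At the low end Mir5117 had 23.7 ± 2.9 and Gm22489 21.6 ± 4.3 CPM per nt. They did not differ beyond their spread, with Mir5117 the higher per length in 2 of 6 libraries. When counts were not divided by length, Mir5117 was the higher in 6 of 6. Gm22357 had 11.4 ± 1.5 and Snord78 3.97 ± 0.85 CPM per nt. Gm22489 exceeded Gm22357 by 1.40 to 2.17 times and Gm22357 exceeded Snord78 by 2.296 to 3.68 times, in 6 of 6 libraries each. The order of neighbours per length was the same in all 6 libraries for 8 of the 9 neighbouring pairs, with the pair of Mir5117 and Gm22489 as the exception. Since the order was read from these values, it was not tested.

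The letters shown above vary with level among the Gas5 snoRNAs. By mean level per length, the RNAs with an inner TGATGA, Gm26224, Gm25789 and the Snord80 pair summed as 1 RNA, were the highest. This holds only for the sum, and how reads inside both Snord80 features were assigned is unknown. Taken apart, the longer was below Gm23212 and the shorter below Snord47 in 6 of 6 libraries, and neither of those has an inner TGATGA. Both snoRNAs without a TGATGA near the 5′ end, Gm22489 and Snord78, were among the lowest 3 by mean level. Mir5117, which has that TGATGA, was higher than Gm22489 in only 2 of 6 libraries. Among the other tested snoRNAs of at most 100 nt, the median was 7.97 CPM per nt for the 6 with both TGATGA, 8.45 for the 78 with the 5′ one only and 2.24 for the 49 without it. Across other hosts, levels were thus not higher with the inner TGATGA, and they were lower where the 5′ one was missing. These are descriptions across RNAs of very different hosts, without a test, and the pattern was looked for after the levels were seen.

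Of the host genes examined, Gas5 supplied the most snoRNA counts. The hosts chosen for comparison were Snhg1, also a spliced non-coding RNA with snoRNAs in its introns, and Rpl13a, a ribosomal protein gene. By summed counts the hosts next to Gas5 were others, Rpl17 (5.82% to 6.74% of a library) and Zfas1 (5.29% to 6.16%). The 8 listed snoRNAs of Snhg1 made up 4.31% to 5.22% of a library and the 4 of Rpl13a 0.308% to 0.378%. The summed level of Gas5 was 5.94 to 6.89 times that of Snhg1 (mean log2 ratio 2.69 ± 0.08, SD) and 76.97 to 100.4 times that of Rpl13a (6.47 ± 0.18), higher in 6 of 6 libraries each. The exact two-sided sign-flip permutation test over the 6 libraries gave p = 0.03125 for each, and 0.03125 adjusted over the 2 comparisons. This is the smallest p it can give, and it must give it where all 6 log2 ratios have the same sign. The hosts were chosen with earlier results of these data known, so the p adds little to the ratios. Per summed feature length the mean log2 ratios were 2.42 and 5.28, and between median members 0.62 and 3.05, so the gap to Snhg1 was narrower for the median member than for the sum. The ratio of highest to lowest mean level per length was 582 in Gas5, 1302 in Snhg1, led by Gm23246, and 154 in Rpl13a, led by Snord34. Differences in spread were not tested.

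The genotypes were compared for each Gas5 snoRNA, and none was called different. In bulk libraries fewer cells that express a gene and less RNA per cell cannot be told apart. By edgeR's quasi-likelihood test with Benjamini-Hochberg adjustment over 624 tested features, 0 of 10 had an adjusted p under 0.05, where 0.16% of all tested features did. At an unadjusted p under 0.05 there was 1 of 10, Gm26224, against 6.41% of all tested features, or 2.08% counting only those higher in KO. DESeq2 also called 0 of 10, with 1 at an unadjusted p under 0.05, against 54 of its 1816 tested features. The estimates were above 0 for 8 of 10, against 40.9% of all tested features, with a median log2 fold change (KO over WT) of 0.07 against -0.08. With 1 library left out the median of the 10 was 0.29 (KO replicate 1), 0.03 (KO replicate 2), 0.11 (KO replicate 3), 0.22 (WT replicate 1), 0.05 (WT replicate 2) and 0.17 (WT replicate 3). It was 0.18 with RLE size factors and 0.26 with DESeq2. Over all tested features the medians without those libraries were -0.03, 0.01, -0.04, 0.003, -0.02 and 0.05, in the same order. The DESeq2 median over all features was 0.02. These directions depend on scaling: with library size alone 5 of 10 were above 0, and with the fit made over features of at most 100 nt 4 of 10. The median of all tested features was -0.16 with library size alone and 0.02 with RLE size factors, and 35.7% and 52.4% of all tested features were above 0. In the fit over features of at most 100 nt, 55.6% of the 320 tested features were above 0. There the median was 0.03 over the 320 and -0.01 over the 10.

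Gm26224, the most abundant RNA in every library, was at 193059, 196474 and 198759 CPM in the KO libraries (replicates 1, 2 and 3, the order used throughout) and at 179515, 173846 and 168730 CPM in the WT libraries. Every KO library was above every WT library. The ratio of the means was 1.13. On the log2 scale edgeR estimated a change of 0.24 (SE 0.06; unadjusted p = 0.00388, adjusted p = 0.542). DESeq2 gave a log2 fold change of 0.42. Levels in CPM did not overlap between the genotypes with KO higher in 1 of 10 Gas5 snoRNAs, against 2.72% of tested features.

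Gm22489, one of the rare snoRNAs of the host, had lower CPM in the KO libraries. Its KO libraries were at 1335, 897 and 1213 CPM and its WT libraries at 1662, 1408 and 1518 CPM. All KO libraries were below all WT libraries, with KO replicate 2 the lowest. The ratio of the means was 0.751, and edgeR's log2 estimate was -0.35 (SE 0.17; adjusted p = 0.710). It was -0.14 without KO replicate 2, -0.20 without WT replicate 1 and -0.18 with DESeq2. Gm22489 was the 1 of 10 whose CPM did not overlap with KO lower, a pattern held by 12.5% of tested features, so the count is near the background.

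**Figure D2:**
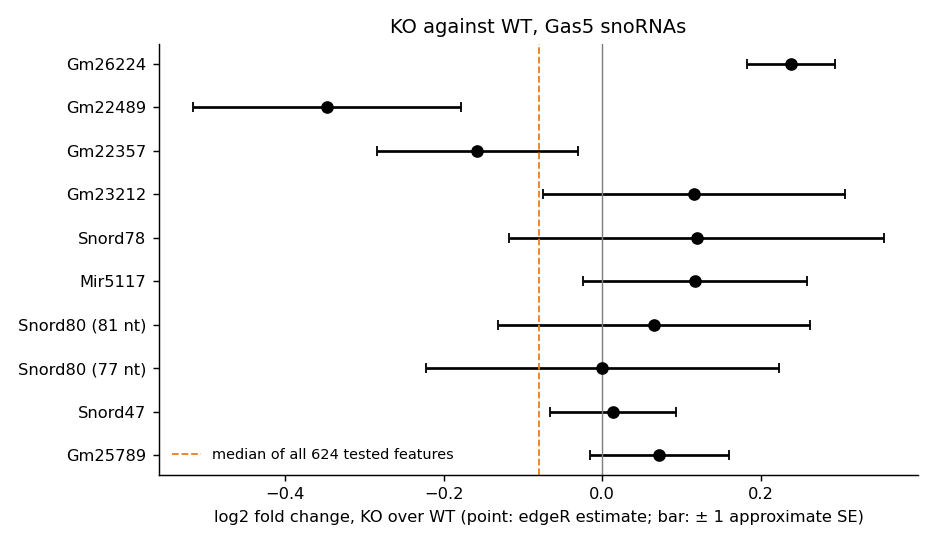
Fitted log2 fold change of each Gas5 snoRNA, KO over WT (points, edgeR; bars are 1 approximate SE either way), in order along the gene, with the median of all 624 tested features as a dashed line at -0.08. Gm26224 at 0.24 and Gm22489 at -0.35 lie farthest from 0 and neither was called.

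The other Gas5 snoRNAs overlapped between genotypes. Gm25789 had 72859, 88110 and 82945 CPM in KO and 77984, 85953 and 78880 CPM in WT libraries. The KO libraries held both its lowest and its highest value, and its log2 fold change was 0.07 (SE 0.09). Snord47 varied least of the 10, with 7458, 7574 and 7675 CPM in KO and 7878, 7546 and 8124 CPM in WT libraries, a coefficient of variation of 3.23% over the 6. Its log2 fold change was 0.01 (SE 0.08). Gm23212 had 8586, 14833 and 12236 CPM in KO and 12495, 10551 and 11356 CPM in WT libraries, so replicates of the KO differed more than the genotypes did (log2 fold change 0.12, SE 0.19). Snord78 had 195, 280 and 328 CPM in KO and 310, 197 and 262 CPM in WT libraries, again with the spread inside each genotype (0.12, SE 0.24). Gm22357 had 823, 859 and 947 CPM in KO and 1169, 913 and 983 CPM in WT libraries, and its estimate was -0.16 (SE 0.13). Only KO replicate 3 reached into the WT range of Gm22357. Mir5117 ranged from 1723 to 2229 CPM in KO and from 1665 to 2200 CPM in WT libraries (0.12, SE 0.14). With 1 library left out the estimates of these RNAs moved by more than 1.5 times while staying uncalled. Snord78 ran from 0.04 without WT replicate 2 to 0.38 without KO replicate 1, and Mir5117 from 0.09 without WT replicate 2 to 0.30 without WT replicate 1. Gm25789 ran from 0.07 without KO replicate 2 to 0.22 without KO replicate 1, and Snord47 from 0.06 without WT replicate 2 to 0.14 without WT replicate 3. The ranges of Gm22357 and Gm23212 included 0.

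The nested Snord80 features overlapped between genotypes as well. The longer had 10808, 17642 and 14099 CPM in KO and 16215, 11794 and 14554 CPM in WT libraries, and the shorter 2804, 4857 and 4450 against 4698, 3353 and 4582 CPM. KO replicate 1 was the lowest for both features. The longer took 3.17 to 3.85 times the counts of the shorter, and the genotypes overlapped (exact permutation p = 0.5). Their sum was 18220 ± 4452 CPM in KO and 18399 ± 2952 CPM in WT libraries (SD, n = 3 each), and as 1 feature edgeR's estimate for it was 0.05 (SE 0.20; adjusted p = 0.958).

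**Figure D3:**
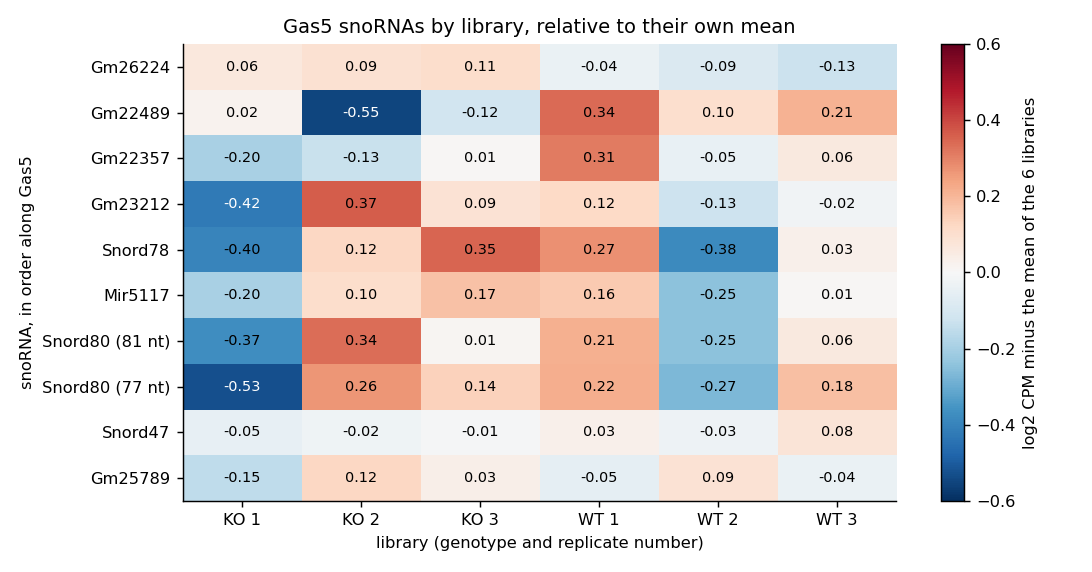
Log2 CPM of each Gas5 snoRNA in each library minus its mean over the 6 libraries (rows in order along Gas5, columns libraries, colour and printed number the difference). KO replicate 1 is low for Gm23212 (-0.42), Snord78 (-0.40) and both Snord80 features (-0.37 and -0.53), while Snord47 stays within 0.08 of its mean.

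Single libraries stood low or high for several of these snoRNAs at once. KO replicate 1 held the lowest CPM for 7 of the 10, and KO replicate 2 the highest for 4 of the 10. By RNA length, KO replicate 1 had a median log2 level of -0.13 relative to the mean of the 6 libraries over 67 tested features of 50 to 70 nt, of -0.13 over 185 features of 71 to 100 nt and of -0.02 over 211 longer ones. KO replicate 2 had 0.03, 0.12 and -0.61. The part of these length profiles in the values of single snoRNAs was not tested, and with scaling restricted to features of at most 100 nt 0 of 10 were called as well. Without KO replicate 1, 0 of 10 were called and the smallest adjusted p was 0.177 by edgeR. In that fit 3 of 10 had an unadjusted p under 0.05, but so had 121 of 662 tested features. With all libraries 40 of 624 tested features had one.

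Over the 6 libraries the snoRNAs of the host varied together in part. Of the 45 pairs 33 had a positive Pearson r of log2 CPM, with a median r of 0.45. The pairs include the nested Snord80 features (r = 0.95). The same count was not computed for other features, so it cannot be read as particular to Gas5. The longer Snord80 feature had r = 0.95 with Gm23212, 0.84 with Mir5117 and 0.80 with Snord78, but 0.09 with Gm26224. The most negative r was -0.71, between Gm26224 and Gm22489. All points share the library's depth and a fixed total, and Gm26224 alone made up 16.9% to 19.9% of that total. The snoRNAs outside Gas5 whose log2 CPM followed the mean of the 10 most closely, of 454 candidates with a mean of at least 50 counts, were Snord61 (r = 0.98), Gm25296 (0.97), Snora26 (0.97), AF357399 (0.97) and Gm25506 (0.96). The coefficient of variation over the 6 libraries had a median of 15.4% for the Gas5 snoRNAs and of 17.7% for the 212 tested features with a mean of at least 1000 counts.

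The composition of the host's output, which does not depend on library scaling, was compared next. Gm26224 made up 64.4%, 58.9% and 61.2% of the summed Gas5 snoRNA counts in the KO libraries and 59.0%, 58.5% and 57.99% in the WT libraries. The genotypes overlapped through KO replicate 2 (61.5% ± 2.8 against 58.5% ± 0.5, SD, n = 3 each, exact permutation p = 0.2). Gm25789 made up 25.4% ± 1.1 and 27.2% ± 1.6, and both RNAs together 84.7% to 88.7%. Gm26224 per count of Gm25789 was 2.65, 2.23 and 2.40 in KO and 2.302, 2.02 and 2.14 in WT libraries, also overlapping (exact permutation p = 0.2).

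Shares were lower in every KO than in every WT library for 3 of the 10, Gm22489, Gm22357 and Snord47. Gm22489 made up 0.445%, 0.269% and 0.373% in KO and 0.546%, 0.474% and 0.522% in the WT libraries. Gm22357 made up 0.274% ± 0.017 against 0.343% ± 0.039, and Snord47 2.37% ± 0.11 against 2.64% ± 0.13 (SD, n = 3 each). Each exact two-sided permutation test gave p = 0.1, the smallest that 3 libraries against 3 allow, so none can pass 0.05. Relative to the summed Gas5 counts, 22.1% of all tested features were lower in every KO library, so 3 of 10 is close to the background. None of the 10 had a higher share in every KO library, against 1.28% of tested features, and 23.4% did not overlap in either direction. With Gm26224 left out of the sum, 0 of the other 9 had shares that did not overlap. Without KO replicate 2, and likewise without WT replicate 1, 5 of 10 did not overlap. With a library fewer, genotypes fail to overlap more easily. The share over all tested features was not computed for these settings. Counts of Gm26224 per count of Gm22489 were 145, 219 and 164 in KO and 108, 123 and 111 in WT libraries, without overlap (exact permutation p = 0.1).

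**Figure D4:**
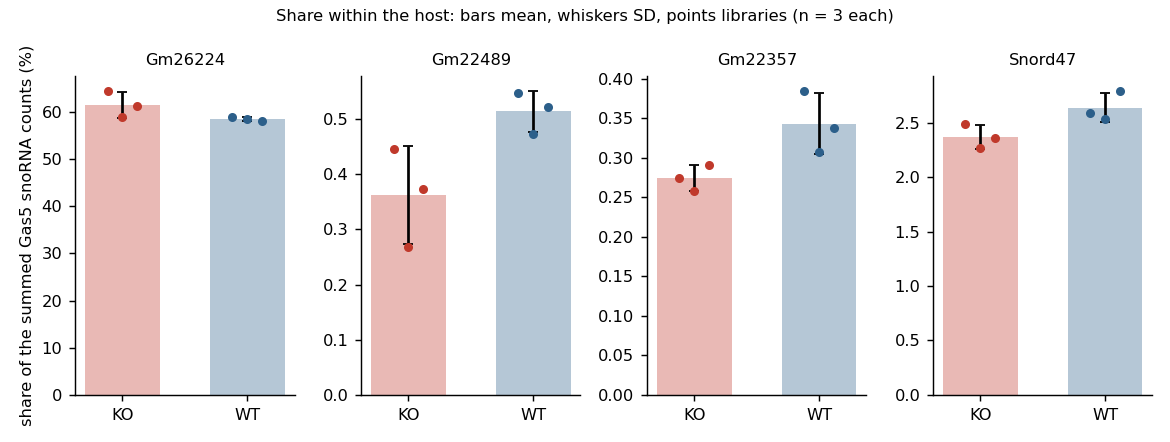
Share of the summed Gas5 snoRNA counts in percent for Gm26224, Gm22489, Gm22357 and Snord47 (points are libraries, bars means and whiskers SD, n = 3 per genotype; each panel has its own axis from 0). The genotypes overlap for Gm26224 and do not overlap for the other 3.

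Summed over the 10, the Gas5 snoRNAs made up 31.9% ± 1.8 of KO and 29.7% ± 0.7 of WT libraries (SD, n = 3 each), a log2 ratio of 0.10. KO replicate 1 lay below WT replicate 1, so the genotypes overlapped, and the exact two-sided permutation test gave p = 0.2. Without KO replicate 1 the log2 ratio was 0.15, without WT replicate 1 it was 0.12, and the genotypes did not overlap in either case. As 1 feature in edgeR the sum had an estimate of 0.26 on the log2 scale (SE 0.07, unadjusted p = 0.00597, adjusted p = 0.664). That fit computed its scaling anew with the 10 as 1 row, so its scaling differs from that of the main fit. With the TMM sizes of the main fit the log2 ratio was 0.17.

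The 44 snoRNAs of at most 100 nt from 16 other host genes, taken from a list of non-coding and translation-related hosts, gave a frame for these values. All 44 were tested, 27 had estimates above 0, the median log2 fold change was 0.04 and 0 were called by edgeR. For the 10 snoRNAs of Gas5 the same counts were 8 above 0, 0.07 and 0 called. The median level per length was 17.2 CPM per nt over the 44 and 76.8 over the 10.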

How the data were processed

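Small RNA of mouse bone marrow was sequenced in 3 KO and 3 WT libraries. The authors deposited counts per feature for each library, named by position. Reads were processed with Trimmomatic 0.38 and Bowtie2 2.3.4.1 on GRCm38, per the submitters' processing notes. No label or note used here names the counting tool, its annotation, its strand setting or how reads with several places were treated. Of 1823 features, 1822 matched a GENCODE M21 gene by position. The other, 45S pre-rRNA, held 3.26% to 5.10% of the counts and stayed in the library totals.

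CPM was computed here from those totals and divided by feature length. All genotype fits were edgeR 4.0.16 quasi-likelihood tests (R 4.3.3, TMM, filterByExpr) over 624 features, with DESeq2 1.42.0, other scaling, other filters, left-out replicates and a replicate block as alternatives. Single values had exact two-sided permutation tests. Replicate libraries were distinct (chi-square over degrees of freedom 530 to 3308).

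All features meeting the positional rule are named, plus the 5 others that follow their mean most closely and the leading snoRNA of each compared host. The members and lists were chosen with earlier results of these data known.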

Additional observations from a re-analysis of the deposited data

How the results depend on the processing

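None of the 10 Gas5 snoRNAs was called by edgeR or DESeq2 under any of the 14 alternatives, with 0 to 3 at an unadjusted p under 0.05. The 3 came without KO replicate 1, where 121 of 662 tested features had such a p by edgeR. Gm26224, Gm22489, Snord78 and Mir5117 kept their direction under all of them. Estimates that changed sign were small, and the cause was not tested. With DESeq2 Gm22357 had 0.023. With library size alone the longer Snord80 feature had -0.00049, the shorter -0.061 and Snord47 -0.053. With features of at most 100 nt these had -0.026, -0.093 and -0.056, and Gm25789 had -0.0032. With 1 replicate left out, Gm22357 ranged from -0.15 to 0.038 (without WT replicate 1), Gm23212 from -0.017 (without KO replicate 2) to 0.38, and the longer and shorter Snord80 features from -0.063 to 0.31 and from -0.091 to 0.28, both lowest without KO replicate 2. The shorter had -0.060 without WT replicate 2. The count of shares that did not overlap was 0 without Gm26224 in the sum and 3 to 5 with 1 replicate left out. No share over all tested features was computed for these settings, so the change in count cannot be read as a result.

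Whether the replicate numbers pair the libraries is not stated by the labels. The deviations of same-numbered libraries correlated at -0.13, 0.40 and -0.36, and 2 libraries correlated best with their own number. No pairing was evident, but so few libraries cannot exclude it. With the replicate block 0 of 10 were called (smallest adjusted p 0.539 by edgeR), the shorter Snord80 feature had -0.019, and the summed level had a log2 fold change of 0.25 (adjusted p = 0.508).

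The summed log2 ratio of KO over WT was 0.17 with TMM sizes, where the genotypes did not overlap, 0.15 relative to the counts outside Gas5 and 0.08 relative to features of at most 100 nt. With 1 replicate left out it was 0.07 to 0.15. The log2 ratio of Gas5 to Snhg1 was then 2.67 to 2.71 and to Rpl13a 6.43 to 6.51, with an exact permutation p of 0.0625, the smallest that 5 libraries can give. With 3 libraries a genotype, differences of the size of the spread between replicates were not detectable. How counts were assigned to the nested Snord80 features is unknown.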
